A study of Mus musculus with 18 samples.

Results

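The dopamine receptor family of the mouse comprises 5 genes, Drd1, Drd2, Drd3, Drd4 and Drd5, and all 5 were found by symbol in the combined count table, out of 56883 rows. The libraries came from frontal cortex of a mouse line, B6;D2-Tg(S100B-EGFP)1Wjt/J, in which the S100B promoter drives EGFP in astrocytes and other S100B-positive cells; clozapine, risperidone and vehicle animals all carried it. Mice received clozapine at 10 mg/kg, risperidone at 1 mg/kg or vehicle by intraperitoneal injection once daily for 14 days, from postnatal day 60 to postnatal day 74, and were sacrificed on postnatal day 75. Cortices of 5 animals were pooled per replicate, and each pool was immunopanned in sequence. The CD45 antibody gave the microglia fraction, HepaCAM the astrocyte fraction and Thy1 the neuron fraction. With 2 pools per treatment (replicates 1 and 2, also named as batches) this made 18 libraries in 9 groups of n = 2, with 4714468 to 13391163 assigned counts. Labels disagree on whether the animals were of both sexes or male, and sex was not used.

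Dopamine receptors are G protein-coupled receptors. Drd1 and Drd5 encode the D1-like receptors, which couple to Gs and Golf and stimulate adenylyl cyclase, and Drd2, Drd3 and Drd4 encode the D2-like receptors, which couple to Gi and Go and inhibit it. Clozapine and risperidone are antipsychotic drugs that block D2-like receptors as well as serotonin receptors. Within cortex, Drd1 and Drd2 are known chiefly from subsets of pyramidal cells and interneurons, Drd3 is best known from ventral striatum, Drd4 from frontal cortex and retina, and Drd5 from cortical and hippocampal neurons.

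Drd1 (ENSMUSG00000021478.7) lay on the minus strand of chromosome 13 (GRCm39, 54205202 to 54209724) with 3628 exonic bases in 3 blocks. Drd2 (ENSMUSG00000032259.9) lay on chromosome 9 (49251927 to 49319477, plus strand) with 2547 exonic bases in 8 blocks. Drd3 (ENSMUSG00000022705.6) lay on chromosome 16 (43574389 to 43643295, plus strand) with 1712 exonic bases, and Drd4 (ENSMUSG00000025496.6) on chromosome 7 (140871919 to 140876377, plus strand) with 3381. Drd5 (ENSMUSG00000039358.4) is a gene of 1 exonic block on chromosome 5 (38476710 to 38479861, plus strand, 3152 bases). The antisense gene Gm26560 overlapped Drd5 over 1531 exonic bases. Counting used no strand setting, so reads of Drd5 and Gm26560 cannot be told apart within the shared bases. Over the 18 libraries the counts summed to 1969 for Drd1, 1220 for Drd2, 340 for Drd5, 316 for Drd3 and 234 for Drd4. The family was therefore measured at low depth, and exact Poisson intervals of single libraries were wide: the 22 counts of Drd1 in microglia clozapine replicate 1 gave 0.758 RPKM with a 95% interval of 0.475 to 1.15.

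The 250 bases before the annotated starts (RefSeq, GRCm38.p6) are shown for the pair of receptors that were high in the neuron fraction and for Drd3, whose upstream sequence is of another composition. Capitals mark a GC box, the letters GGGCGG or their reverse complement CCGCCC. The first Drd1 start (chr13:54055659-54055908, minus strand), the Drd2 start (chr9:49340153-49340402, plus strand) and the Drd3 start (chr16:43761971-43762220, plus strand) read, 5′ to 3′:
Drd1: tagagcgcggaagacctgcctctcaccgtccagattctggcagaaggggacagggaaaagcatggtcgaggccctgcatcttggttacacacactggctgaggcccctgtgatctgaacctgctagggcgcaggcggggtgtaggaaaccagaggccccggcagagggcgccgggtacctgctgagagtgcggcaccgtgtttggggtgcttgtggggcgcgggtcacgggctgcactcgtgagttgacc
Drd2: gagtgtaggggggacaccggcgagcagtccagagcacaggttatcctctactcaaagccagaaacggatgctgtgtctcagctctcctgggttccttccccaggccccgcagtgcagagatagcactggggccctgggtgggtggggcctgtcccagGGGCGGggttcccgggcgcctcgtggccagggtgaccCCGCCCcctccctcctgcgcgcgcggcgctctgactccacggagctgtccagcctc
Drd3: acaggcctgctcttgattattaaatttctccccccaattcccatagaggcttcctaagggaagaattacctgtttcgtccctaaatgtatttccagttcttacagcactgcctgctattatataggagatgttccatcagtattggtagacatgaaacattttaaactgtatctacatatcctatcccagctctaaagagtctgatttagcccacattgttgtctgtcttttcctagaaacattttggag
The Drd1 window held 64.0% G and C and 15 CpG dinucleotides, the Drd2 window 68.8% and 15, and the Drd3 window 39.2% and 1, beside medians of 52.4% and 6 over 32851 RefSeq promoter windows of this length. A GC box was found in the windows of Drd2, Drd4, Drd5 and a second Drd1 start, and in 32.7% of all windows; the letters TATAAA or TTTATA were in none of the 6 receptor windows and in 12.4% of all. No readout of these libraries tests the motifs.

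The first question was where each receptor was found. Levels between genes are compared in RPKM, read counts scaled by exon length and by the TMM-adjusted library total. Drd1 lay at 3.26, 4.73 and 11.0 RPKM in the neuron fraction (lowest, median and highest of 6 libraries), at 2.00, 2.27 and 2.78 in the astrocyte fraction and at 0.758, 2.35 and 6.04 in the microglia fraction. All 6 neuron libraries were above the 6 astrocyte libraries, whereas 1 microglia library, vehicle replicate 2, reached into the neuron range. Drd2 lay at 2.62, 4.15 and 9.66 RPKM in neurons, at 0.747, 2.10 and 3.04 in astrocytes and at 1.33, 2.67 and 3.93 in microglia. Neuron libraries overlapped both glial fractions for Drd2. Averages for Drd1 were 6.20 ± 3.49 in neurons, 2.30 ± 0.29 in astrocytes and 2.61 ± 1.82 RPKM in microglia, and for Drd2 5.18 ± 2.78, 2.11 ± 0.82 and 2.62 ± 1.04 in the same order (SD, n = 6 each). At its neuronal mean Drd1 stood above 67.6% of 21829 protein-coding genes, and Drd2 above 63.8%.

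Drd3, Drd4 and Drd5 were less abundant. Drd3 averaged 0.77 ± 0.62 RPKM in neurons, 1.48 ± 0.84 in astrocytes and 1.66 ± 0.42 in microglia (SD, n = 6 each). Counts of Drd3 ran from 6 to 24 per neuron library, from 4 to 30 per astrocyte library and from 15 to 33 per microglia library. Drd4 averaged 0.18 ± 0.15 RPKM in neurons, 0.54 ± 0.41 in astrocytes and 0.75 ± 0.44 in microglia, on 1 to 12, 5 to 27 and 11 to 44 counts. Drd5 averaged 0.57 ± 0.43 RPKM in neurons, 0.97 ± 0.40 in astrocytes and 0.76 ± 0.43 in microglia. For these receptors the glial means were above the neuronal ones, the opposite order to Drd1 and Drd2. Drd5 had 0 counts in neuron risperidone replicate 2, which allows up to 0.117 RPKM by the limit of 3 counts, and Gm26560 also had 0 there.

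**Figure D1:**
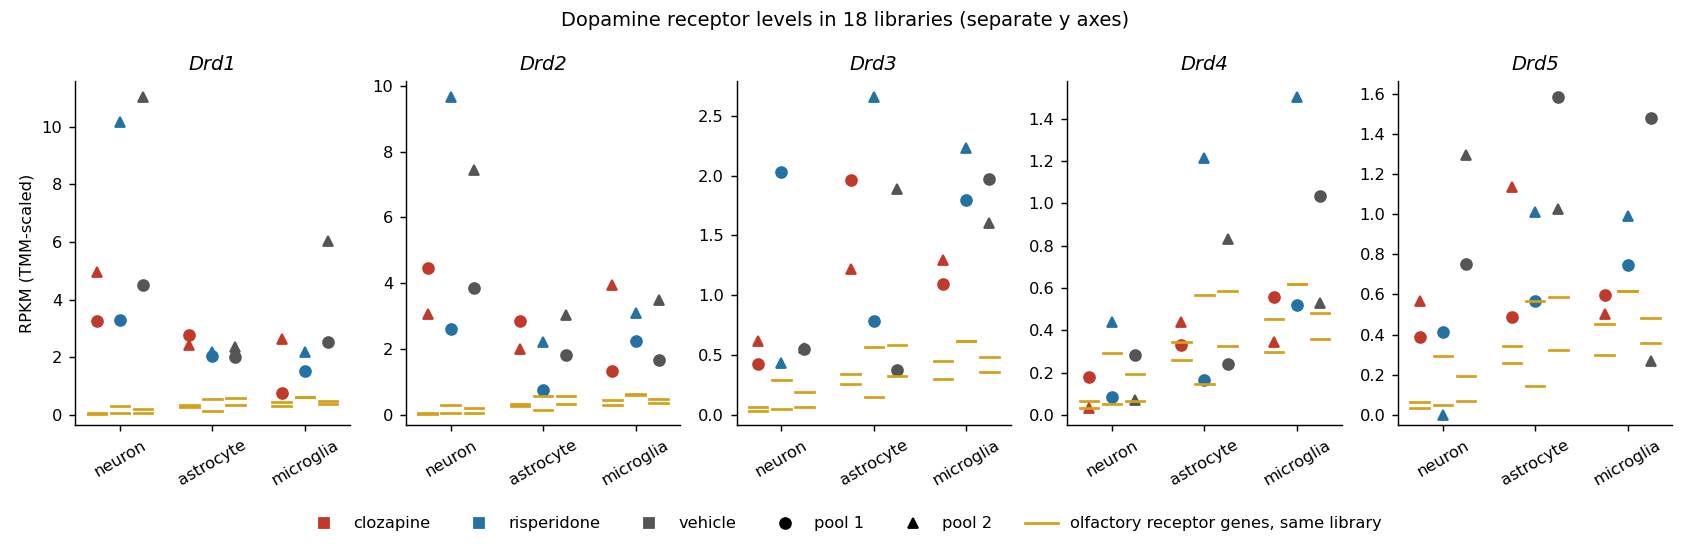
RPKM of each dopamine receptor (one panel each, separate linear y axes) in the neuron, astrocyte and microglia fractions; circles are pool 1 and triangles pool 2 of each treatment, and yellow lines give the pooled RPKM of 1093 olfactory receptor genes in the same library. Drd1 and Drd2 stand far above the lines in every neuron library, and Drd4 lies near them in most libraries.

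Whether such low levels exceed the reads found on genes that cortical cells are not known to use was examined with the 1093 protein-coding olfactory receptor genes, a list chosen after the values were seen. Pooled over these genes, the level was 0.117 RPKM in neurons (0.0342 to 0.294 over libraries), 0.371 in astrocytes (0.146 to 0.587) and 0.470 in microglia (0.296 to 0.619). The background was thus itself higher in the glial fractions. Drd1 exceeded it by a median of 98.2-fold in neurons, 6.64-fold in astrocytes and 4.39-fold in microglia, and Drd2 by 79.8-fold, 5.41-fold and 4.32-fold. Drd3 exceeded it by 7.67-fold, 4.14-fold and 3.85-fold, and Drd5 by 4.98-fold, 2.60-fold and 1.46-fold. Drd4 lay close to it, at median ratios of 1.26, 1.28 and 1.35. Against the 95th percentile of single olfactory receptor genes in the same library, Drd1 and Drd2 were above it in 6 of 6 neuron and 6 of 6 astrocyte libraries, and in microglia Drd2 was above it in 6 and Drd1 in 4. Drd3 was above it in 5 of 6 libraries of each fraction, Drd5 in 4, 3 and 1, and Drd4 in 1 neuron, 0 astrocyte and 1 microglia library. With the olfactory receptor level subtracted, Drd4 had 0.0638 ± 0.195 RPKM in neurons, 0.166 ± 0.259 in astrocytes and 0.278 ± 0.370 in microglia. Drd4 was thus within 1 SD of 0 in every fraction (SD, n = 6 each). Drd5 had 0.452 ± 0.446, 0.598 ± 0.371 and 0.293 ± 0.377 in the same order. The neuronal mean of Drd5 then lay above its microglial mean, which was also within 1 SD of 0.

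The order of mean levels was Drd1, Drd2, Drd3, Drd5, Drd4 in neurons and in astrocytes, and Drd2, Drd1, Drd3, Drd5, Drd4 in microglia. Drd1 was above Drd2 in 5 of 6 neuron libraries, by 1.02 ± 1.60 RPKM, in 3 of 6 astrocyte libraries and in 2 of 6 microglia libraries, so Drd1 and Drd2 did not separate beyond their spread. Between Drd2 and Drd3 the neuron libraries did not overlap, with a difference of 4.41 ± 3.14 RPKM (SD, n = 6). All other neighbours in the order overlapped in range, although Drd3 exceeded Drd5 in 6 of 6 microglia libraries. As shares of the summed receptor RPKM, Drd1 and Drd2 took 46.4% and 39.5% in neurons, 32.8% and 27.7% in astrocytes, and 28.6% and 31.4% in microglia, on sums of 12.9, 7.40 and 8.41 RPKM. Drd3 took 7.68%, 19.0% and 20.8%.

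Differences between fractions were then tested with all 18 libraries in 1 fit. The 6 libraries of each fraction came from the same 6 pools, and this fit had no term for the pool. A fit with the pool as a block was an alternative. Drd1 was higher in the neuron fraction than in the microglia fraction by 1.33 on the log2 scale (SE 0.33, edgeR adjusted p = 0.00268) and in 6 of 6 pools, by 0.81 to 2.20. It was also higher in neurons than in astrocytes, by 1.39 (SE 0.33, adjusted p = 0.00716), again in 6 of 6 pools. Drd2 was higher in neurons than in microglia by 0.94 (SE 0.36, adjusted p = 0.0363) in 5 of 6 pools, and than in astrocytes by 1.31 (SE 0.37, adjusted p = 0.0165) in 6 of 6 pools. Drd4 was lower in neurons than in microglia, at -2.05 (SE 0.68, adjusted p = 0.0179), in 6 of 6 pools. Its level was close to that of the olfactory receptor genes in both fractions (median ratios of 1.26 in neurons and 1.35 in microglia). The part of that background in this call was not tested. In these bulk fractions, fewer cells of a type and less RNA per cell cannot be told apart. Between neurons and microglia 3 receptors were called, 2 higher and 1 lower, where 47.1% of 37310 genes were called, 18.8% higher and 28.2% lower. Between neurons and astrocytes 2 were called, both higher, where 23.7% of genes were called, 9.17% higher and 14.6% lower. No receptor was called between astrocytes and microglia, where 13% of genes were (6.85% higher and 6.18% lower), by edgeR or DESeq2, and 0 of the 5 had an unadjusted p under 0.05. The differences ran from -0.44 (Drd4) to 0.34 (Drd5), with intervals such as -0.75 to 0.63 for Drd1.

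The remaining differences between neurons and glia did not pass the test. Drd3 differed by -1.19 between neurons and microglia (SE 0.53, adjusted p = 0.0678) and by -1.03 between neurons and astrocytes (adjusted p = 0.148). Drd5 differed by -0.68 (SE 0.58, adjusted p = 0.329) and by -1.02 (adjusted p = 0.183), and Drd4 by -1.61 between neurons and astrocytes (adjusted p = 0.0819, and 0.0495 with the pool as a block). Over the same fits, the median of all genes was -0.62 between neurons and microglia and -0.46 between neurons and astrocytes. Relative to that median Drd5 stood at -0.06 against microglia, and in the vehicle libraries alone its difference was 0.26. Of the olfactory receptor genes, 919 were tested; 608 of them were lower and 0 higher in neurons than in microglia, with a median of -2.72, and 348 were lower and 0 higher than in astrocytes, with a median of -2.35. The differences of Drd3, Drd4 and Drd5 lay between the medians of all genes and of the olfactory receptor genes, and those of Drd1 and Drd2 above both. The part of that background in the glial values of Drd3, Drd4 and Drd5 was not tested.

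The scaling mattered for these calls. Drd1 differed between neurons and microglia by 1.12 with RLE factors (adjusted p = 0.0095), by 0.80 with TMM factors taken from coding genes of at least 10 CPM (adjusted p = 0.0358) and by 0.71 with total counts alone (adjusted p = 0.0795). The median of all genes moved to -0.81, -1.07 and -1.12 under these settings, and relative to that median Drd1 stood higher by 1.95 with TMM, 1.93 with RLE, 1.88 with abundant genes and 1.83 with total counts. Of these 4 scalings, Drd2 passed in the neuron and microglia comparison with TMM over all genes alone, and kept its direction at 0.74 with RLE (adjusted p = 0.101), 0.43 with abundant genes (adjusted p = 0.341) and 0.33 with total counts (adjusted p = 0.500). Relative to the median of all genes Drd2 stood 1.45 to 1.56 higher under the 4 scalings. Drd3 was called under each of the other 3 scalings, at -1.37 with RLE (adjusted p = 0.0442) and at -1.67 with total counts (adjusted p = 0.0357). Of the genes called between neurons and microglia, 7022 were higher and 10536 lower under TMM, against 3671 and 14240 under total counts. In the 6 vehicle libraries alone no receptor was called between neurons and microglia, where 6.1% of genes were, and Drd1 differed by 0.85 (adjusted p = 0.287). Between neurons and astrocytes they called no receptor and 0.00337% of genes.

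**Figure D2:**
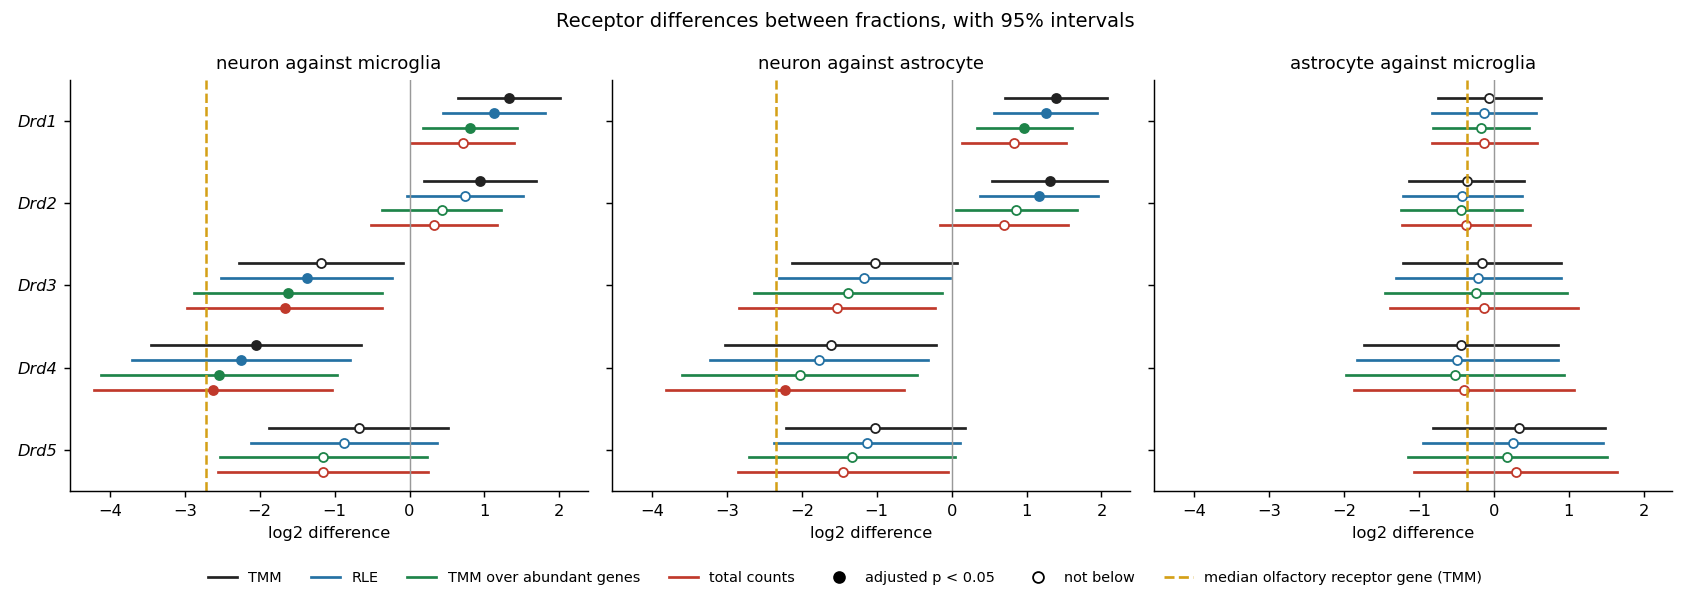
Log2 differences of each receptor between fractions with 95% intervals, under 4 ways of scaling (colours); filled points have an edgeR adjusted p below 0.05, and the dashed line is the median of 919 olfactory receptor genes under TMM. Drd1 and Drd2 lie to the right of 0 against microglia and astrocytes and Drd3, Drd4 and Drd5 to the left, while between astrocytes and microglia every interval includes 0.

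Other genes of the fractions gave the setting of these values. Each fraction had the highest mean of its own marker, and the markers of the others were also detected in it. Cx3cr1, a microglial chemokine receptor, averaged 26.7 CPM in neurons, 34.6 in astrocytes and 389 in microglia; Aqp4, the astrocyte water channel, averaged 138, 318 and 72.5; and Rbfox3, a neuronal splicing factor, averaged 322, 111 and 80.4 (n = 6 each). Oligodendrocyte markers (12 genes, summed) were high in 2 fractions, at 7530 to 38553 CPM in neurons and 6966 to 43906 in astrocytes, against 484 to 2734 in microglia. Their part in the receptor differences was not tested. Pan-neuronal markers (12 genes, summed) lay at 5747 to 15334 CPM in the neuron fraction, at 1663 to 4698 in the astrocyte fraction and at 1084 to 5211 in the microglia fraction, so the glial fractions also held neuronal RNA, and none of these 12 genes was at 0 in any library. Per 1000 CPM of these markers, Drd1 had a median of 2.10 CPM in neurons (1.15 to 3.22), 2.18 in astrocytes (1.81 to 4.75) and 4.51 in microglia (1.68 to 6.55). Drd2 had medians of 1.22, 1.41 and 2.73. Drd3 had medians of 0.0740, 0.606 and 1.52, and Drd4 of 0.0548, 0.286 and 1.39. Set against neuronal markers, the median of each of these 4 receptors was lowest in neurons, and the ranges of Drd1 overlapped. The markers are highest in neurons, so any gene less enriched there than the markers comes out lowest by this ratio. The ratio therefore cannot show that glia hold more of a receptor. The part of neuronal RNA in the glial levels of Drd1 and Drd2 was not tested. Striatal projection neuron markers (15 genes) summed to 864 to 2183 CPM in neurons, 446 to 802 in astrocytes and 257 to 766 in microglia; among them Penk, an opioid precursor of Drd2-positive striatal neurons, averaged 199 ± 112 CPM in neurons, 65.3 ± 17.9 in astrocytes and 68.4 ± 48.4 in microglia (SD, n = 6 each).

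**Figure D3:**
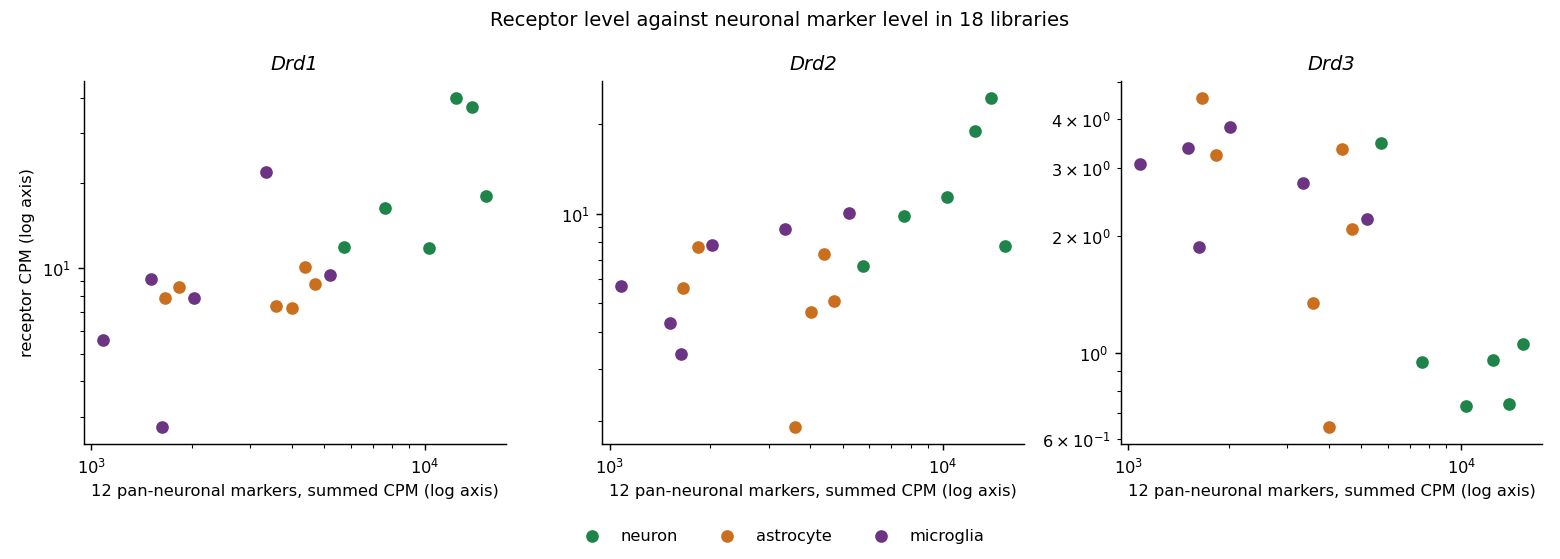
CPM of Drd1, Drd2 and Drd3 (y, log axis) against the summed CPM of 12 pan-neuronal markers (x, log axis), one point per library, coloured by fraction. The glial libraries, at 1084 to 5211 CPM of markers, overlap the neuron libraries in Drd1 through microglia vehicle replicate 2 and in Drd2 through several libraries, and Drd3 is lower in 5 of 6 neuron libraries than in 11 of 12 glial ones.

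The receptors' pathway was set beside them in the same fits. Of 22 G protein and adenylyl cyclase genes, 20 were higher and 1 lower in neurons than in microglia, and 15 were higher and 0 lower than in astrocytes. Over all genes tested, 18.8% were higher and 28.2% lower in neurons than in microglia, and 9.17% were higher and 14.6% lower than in astrocytes, the background for each list. Among the G protein genes Gng7, a gamma subunit of the striatal Golf complex, differed by 2.52 from microglia (SE 0.33, adjusted p = 5.53e-06), and Gnal, the alpha subunit of Golf, by 1.76 from astrocytes (SE 0.32, adjusted p = 0.00318). Gnai3, a Gi alpha subunit, was lower in neurons than in microglia, at -1.20. Of 20 genes of protein kinase A, phosphodiesterases and DARPP-32 relatives, 16 were higher in neurons than in microglia and 15 than in astrocytes, and none was lower in either. Prkaca, a catalytic subunit of protein kinase A, was higher by 1.78 (SE 0.25) against microglia. Ncs1, a calcium sensor that binds Drd2, was higher by 2.44 against microglia (SE 0.34) and by 1.70 against astrocytes (SE 0.33). Of 20 receptor kinases, arrestins, RGS proteins and partners, 14 were higher and 2 lower in neurons than in microglia; the lower ones were Rgs2 at -1.33 and Arrb2, the beta-arrestin of the Drd2-Akt branch, at -0.97. Of the 11 genes of the arrestin, Akt and GSK3 branch, 10 were higher than in microglia and 7 than in astrocytes. List medians were 1.11 to 1.44 for these groups against microglia, beside -0.62 for all genes.

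Genes that make, take up or break down dopamine were less uniform. Maoa and Maob, the monoamine oxidases, were higher in neurons than in microglia by 1.00 (SE 0.22) and 1.10 (SE 0.31), and in astrocytes than in microglia by 1.52 (SE 0.22) and 2.12 (SE 0.31). Maob was lower in neurons than in astrocytes, at -1.02 (SE 0.30, adjusted p = 0.0201). Gch1, which makes the cofactor of tyrosine hydroxylase, was lower in neurons than in microglia at -3.63 (SE 0.36). Slc6a3, the dopamine transporter, stood at 1.20 ± 1.03 CPM in neurons, 4.16 ± 1.93 in astrocytes and 4.58 ± 1.67 in microglia, and Th, which encodes tyrosine hydroxylase, at 5.11 ± 4.49, 5.52 ± 3.43 and 5.32 ± 3.68 CPM (SD, n = 6 each). The other receptor families that these drugs bind were also examined. Of 14 serotonin receptors, 5 were higher and 1 lower in neurons than in microglia, with Htr1b at 1.25 and Htr2c at 1.10, where 18.8% of all genes were higher and 28.2% lower. In neurons 4 were higher than in astrocytes, where 9.17% of all genes were; Htr2a, a main target of both drugs, differed there by 1.55 (SE 0.31, adjusted p = 0.00387). Of 18 muscarinic, adrenergic and histamine receptors, 12 were higher and 2 lower than in microglia, beside the same 18.8% and 28.2%. Chrm5, a muscarinic receptor, was lower at -1.44 (SE 0.46).

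The next question was whether either drug moved the receptors. No receptor was called in any of the 9 treatment comparisons, in 39 tests with n = 2 pools a group, and 0% of all genes were called in each comparison as well. By edgeR, 199 to 2426 genes per comparison had an unadjusted p under 0.05, out of 25510 to 32846 tested. With so many tests some genes fall under it by chance alone, and these counts are not calls. DESeq2 called 0 to 12 genes and no receptor. Among the receptors, 1 of the 39 tests had an unadjusted p under 0.05. Drd3 and Drd4 did not pass the count filter in the neuron fraction and were tested in the glial fractions only.

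That test was Drd1 in the microglia fraction. Drd1 had 0.758 and 2.62 RPKM with clozapine, 1.54 and 2.17 with risperidone, and 2.54 and 6.04 with vehicle (pools 1 and 2). Vehicle replicate 2 stood above all other microglia libraries, clozapine and vehicle overlapped, and both risperidone pools were below both vehicle pools. The log2 difference was -1.40 for clozapine against vehicle (SE 0.57, interval -2.64 to -0.16, edgeR adjusted p = 1), at -1.66 in batch 1 and -1.19 in batch 2. It was -1.17 for risperidone against vehicle (SE 0.57, adjusted p = 0.928) and -0.23 for clozapine against risperidone. Pan-neuronal markers summed to 1633 and 5211 CPM with clozapine, 1084 and 2025 with risperidone, and 1515 and 3349 with vehicle, highest in clozapine replicate 2. Striatal projection neuron markers summed to 325 and 575 CPM with clozapine, 257 and 394 with risperidone, and 404 and 766 with vehicle, highest in vehicle replicate 2, the library highest in Drd1, and lower with each drug than with vehicle within each batch. The part of either marker group in the Drd1 difference was not tested. The olfactory receptor median was -0.26 for clozapine and 0.68 for risperidone. Without vehicle replicate 2 the clozapine difference was -0.58, without clozapine replicate 1 it was -0.78, and without clozapine replicate 2 it was -2.58.

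In the neuron fraction Drd1 had 3.26 and 4.97 RPKM with clozapine, 3.28 and 10.2 with risperidone, and 4.49 and 11.0 with vehicle. Pool 2 was above pool 1 in all 3 treatments, and the groups overlapped. Clozapine differed from vehicle by -0.95 (SE 0.51, interval -2.06 to 0.17, edgeR adjusted p = 1), with -0.45 in batch 1 and -1.14 in batch 2, and risperidone from vehicle by -0.26 (SE 0.50). The olfactory receptor median in neurons was -2.07 for clozapine and 0.15 for risperidone against vehicle. Pan-neuronal markers summed there to 10312 and 15334 CPM with clozapine, 5747 and 13921 with risperidone, and 7623 and 12441 with vehicle. Striatal projection neuron markers summed to 1168 and 1384, 864 and 2183, and 1209 and 2176 CPM in the same order (lower pool first). The part of either marker group in the neuronal Drd1 differences was not tested. In the astrocyte fraction Drd1 had 2.78 and 2.44 RPKM with clozapine, 2.04 and 2.18 with risperidone, and 2.00 and 2.37 with vehicle. There the clozapine pools were above the others, yet the difference from vehicle was 0.23 with an interval of -0.70 to 1.17. Whether the clozapine difference of Drd1 itself differed between fractions was tested with an interaction term: it was 1.59 higher in astrocytes than in microglia (SE 0.81, edgeR adjusted p = 1) and 0.42 higher in neurons than in microglia. No receptor was called in any of the 6 interactions (30 tests), in 5 of which 0% of genes were called and in 1 of which, risperidone between neurons and astrocytes, 0.00268%.

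Drd2 encodes a receptor that both drugs block. In neurons it had 4.45 and 3.06 RPKM with clozapine, 2.62 and 9.66 with risperidone, and 3.85 and 7.43 with vehicle. The risperidone pools spanned the widest range and enclosed both other groups. Drd2 differed from vehicle by -0.61 with clozapine (SE 0.54, interval -1.80 to 0.57) and by 0.05 with risperidone (SE 0.54, interval -1.12 to 1.23). In astrocytes it had 2.86 and 1.99 RPKM with clozapine, 0.747 and 2.21 with risperidone, and 1.83 and 3.04 with vehicle. Astrocyte risperidone replicate 1 was the lowest of these libraries, on 17 counts, and the risperidone difference was -0.73 (SE 0.64, interval -2.14 to 0.69). In microglia Drd2 had 1.33 and 3.93 RPKM with clozapine, 2.25 and 3.09 with risperidone, and 1.68 and 3.48 with vehicle, with all groups overlapping and differences from vehicle of -0.03 and 0.09. With intervals of this width, the lack of calls does not show that Drd2 stayed the same.

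**Figure D4:**
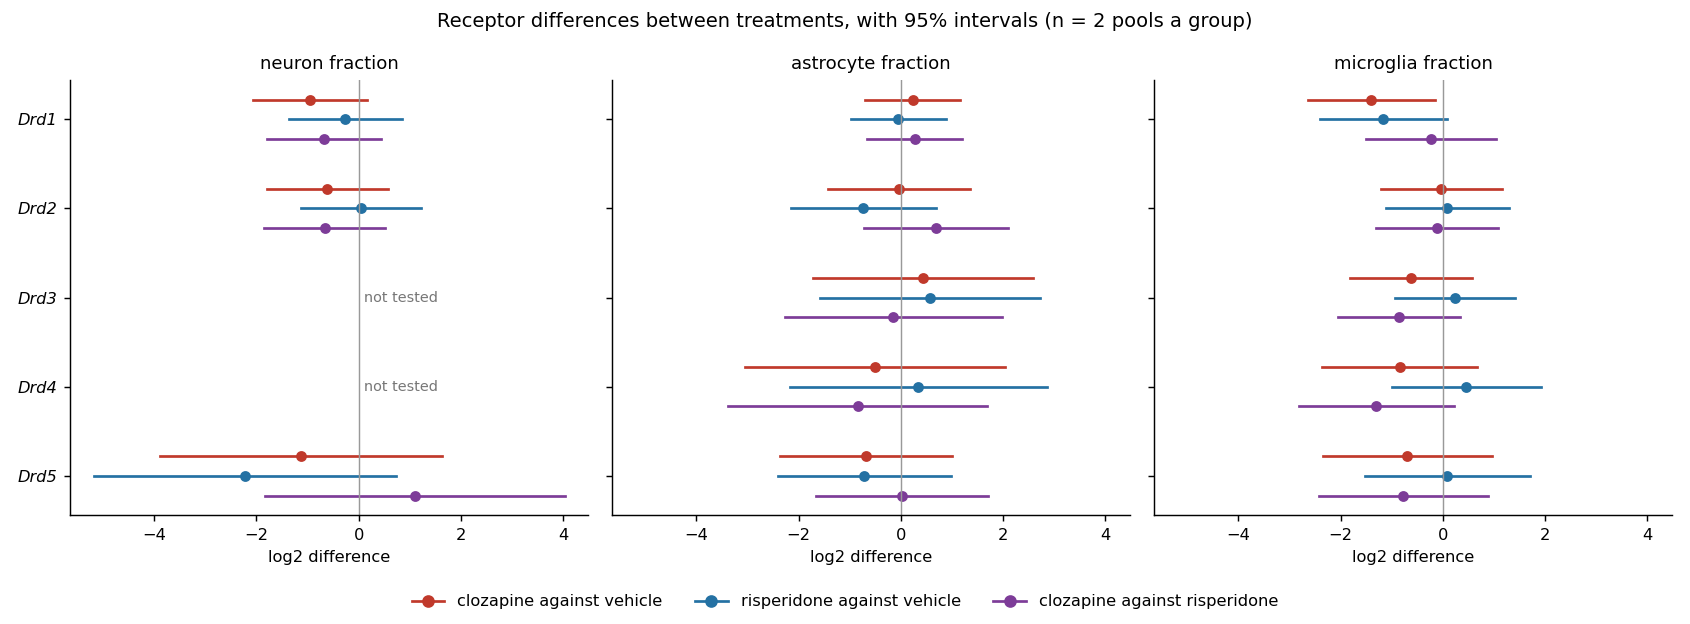
Log2 differences between treatments for each receptor with 95% intervals, by fraction, from edgeR fits of 6 libraries each. Every interval includes 0 except Drd1 for clozapine against vehicle in microglia (-2.64 to -0.16), and Drd3 and Drd4 were not tested in neurons.

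The less abundant receptors rested on few counts in each treatment. Drd3 in neurons had 0.427 and 0.616 RPKM with clozapine, 2.03 and 0.431 with risperidone, and 0.554 and 0.560 with vehicle. Neuron risperidone replicate 1 alone stood apart, on 24 counts, and it was also the neuron library with the highest olfactory receptor level (0.294 RPKM) and the lowest sum of pan-neuronal markers (5747 CPM). Drd5 in neurons had 0.387 and 0.568 RPKM with clozapine, 0.414 and 0 with risperidone, and 0.752 and 1.29 with vehicle. Both drug groups were below both vehicle pools for Drd5, but the differences were -1.13 (SE 1.26) with clozapine and -2.23 (SE 1.35) with risperidone, neither passing the test. Within batches 1 and 2 the clozapine difference of Drd5 was -0.83 and -1.08. Gm26560 went the same way, at 6 and 12 counts with clozapine, 2 and 0 with risperidone, and 15 and 23 with vehicle. Reads in the bases that Gm26560 shares with Drd5 were counted for both genes, so Gm26560 is no separate evidence on Drd5. The olfactory receptor median in neurons, given above, was also negative with clozapine but not with risperidone, and its part in Drd5 was not tested. Drd4 in neurons had 0.1804 and 0.0312 RPKM with clozapine, 0.0857 and 0.437 with risperidone, and 0.280 and 0.0709 with vehicle. The Drd4 groups overlapped there, in astrocytes (0.332 and 0.441 with clozapine, 0.166 and 1.21 with risperidone, 0.238 and 0.833 with vehicle) and, between each drug and vehicle, in microglia (0.555 and 0.343 with clozapine, 0.520 and 1.504 with risperidone, 1.04 and 0.530 with vehicle). Over the glial fractions Drd3, Drd4 and Drd5 differed between treatments by -1.30 to 0.58 with standard errors of 0.54 to 1.16.

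The pathway lists gave no calls in the treatment comparisons either: no gene of the dopamine metabolism, G protein, protein kinase A, receptor kinase, arrestin-Akt-GSK3, serotonin or muscarinic, adrenergic and histamine receptor lists was called in any of the 9. The smallest unadjusted p belonged to Htr4, a serotonin receptor, at -1.55 for clozapine against vehicle in microglia (SE 0.46, edgeR adjusted p = 1). Rgs9, a striatal brake on D2 receptor signalling, differed there by -1.29 with clozapine and by -1.29 with risperidone (SE 0.42 each), comparisons that share the vehicle pools. Rgs9 is also among the striatal projection neuron markers summed above for these libraries, so it is not separate from that sum.

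Genes whose pattern over the 18 libraries was most like each receptor were listed by Pearson r of log2 CPM among 18851 genes, as a description; libraries share pools, depth and fraction. For Drd1 they were Rtn4rl1 (r = 0.918), St8sia3, Cntnap5c, Scn4b and Penk (0.901). For Drd2 they were Ly6h (0.872), Tmem200a, Reln, Htr2a and Tmppe. Drd3 came with Olfr1426 (0.937), Foxd4, Slc22a22, Dkk4 and Olfr307, and Drd4 with Spink5 (0.906), Adgrg6, Olfr873, Vmn2r115 and Olfr1487. Drd5 came with Trim7 (0.857), B3gnt4, Tmem40, Dnajb3 and Omp, the olfactory marker protein. The neighbours of Drd1 and Drd2 thus included genes of neurons, and those of Drd3 and Drd4 included olfactory and vomeronasal receptor genes. After subtraction of fraction means, Grid1 (0.927) was nearest to Drd1, Plppr1 (0.843) to Drd2, Olfr1426 (0.924) to Drd3, Myo3b (0.866) to Drd4 and Hdc (0.871) to Drd5. Within fractions, Drd1 and Drd2 correlated at r = 0.858 in neurons, 0.653 in astrocytes and 0.719 in microglia over 6 libraries each.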

How the data were processed

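Per the labels' protocols, microglia, astrocytes and neurons were immunopanned in sequence from pooled frontal cortices and their RNA sequenced as paired ends. The authors deposited raw counts per gene. Per the file headers, these were read pairs on exons, summed per gene by featureCounts 2.0.8 against GRCm39, with no strand option and with reads over several genes counted for each. FastQC is named in the submitters' processing notes; no source used here names an aligner. Symbols came from a gene name table for 52029 of 56953 identifiers, biotypes from GENCODE vM21, and receptor counts equalled those of the combined table in all 90 cells.

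Differences were tested with edgeR 4.0.16 under R 4.3.3 (TMM, filterByExpr, quasi-likelihood test, Benjamini-Hochberg over all genes tested, called under 0.05), each fraction alone for drugs and all 18 libraries for fractions and interactions. DESeq2 1.42.0 was an alternative. Functions were tested on simulated data. RPKM used TMM-scaled totals; intervals and floors cover counting error only. The members, lists and tests were chosen with earlier results of these data known; the olfactory receptor genes, the scaling by abundant genes and the total-count scaling of the tests were added after values were seen.

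All receptors are described. From each other list the called members with the smallest p were eligible to be named, up to 3 a direction, and some of those are printed; the levels of Penk, Slc6a3 and Th and the values of Rgs9 were picked after they were seen. Likeness was taken over named protein-coding genes that passed the filter. Replicate numbers name batches, and all fractions of a number and treatment come from the same animals, so numbers pair libraries by design; deviations of same-numbered libraries correlated at 0.0993 to 0.447 between treatments of a fraction and at -0.388 to 0.122 between fractions of a pool. Pools are separate sets of animals, and n = 2 limits every drug comparison.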

Additional observations from a re-analysis of the deposited data

Results flagged for a closer look

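Within each fraction the highest and the lowest of the 6 libraries were compared with the nearest other value, as a share of the whole range and against Dixon's 95% limit, for all 5 receptors (15 groups); chance flags about 1 in 20 groups. Drd1 in microglia vehicle replicate 2, at 6.04 RPKM, stood apart from the other microglia libraries (0.758 to 2.62 RPKM). Drd3 in neuron risperidone replicate 1, at 2.03 RPKM, stood apart from the other neuron libraries (0.427 to 0.616 RPKM).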

How the results depend on the processing

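Leaving out 1 library in turn gave 2 to 5 receptors called between neurons and microglia and 1 to 4 between neurons and astrocytes, and 0 in every drug comparison, every interaction and between astrocytes and microglia. With all 18 libraries, 3 receptors were called between neurons and microglia and 2 between neurons and astrocytes, where 47.1% and 23.7% of genes were. Without neuron risperidone replicate 1 the counts were 5 and 4; without neuron vehicle replicate 2, neuron risperidone replicate 2 or astrocyte clozapine replicate 2, 1 receptor was called between neurons and astrocytes. Drd1 stayed called in both neuron comparisons in 18 of 18 such fits, while Drd2 was called in 8 of 18 against microglia (0.45 to 1.17) and in 15 of 18 against astrocytes. Vehicle libraries alone gave 0 in both neuron comparisons, where they called 6.1% of genes against microglia and 0.00337% against astrocytes. Against astrocytes, total counts and TMM over abundant genes gave 1 receptor each, where they called 29.7% and 25% of genes. The receptor called with abundant genes was higher in neurons. The receptor called with total counts was lower in neurons, and Drd1 (0.84) and Drd2 (0.70) were not called under that scaling. These 2 scalings and the subtraction of the olfactory receptor level were chosen after seeing the data.

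With the replicate block (pools paired), 3 receptors were called in each neuron comparison, Drd4 against astrocytes being added at -1.67 (edgeR adjusted p = 0.0495). That fit called 44.2% of genes between neurons and microglia and 21.6% between neurons and astrocytes. The block changed no other call. DESeq2 called 1 receptor higher and 2 lower in neurons than in microglia (edgeR 2 and 1), where it called 35.4% of genes. Against astrocytes DESeq2 called 2 higher and 1 lower (edgeR 2 and 0), where it called 21.1% of genes. Direction reversed for Drd2 for clozapine against vehicle in microglia with all libraries in 1 fit (0.029), for Drd2 for clozapine against vehicle in astrocytes with the block (0.062), for Drd2 for risperidone against vehicle in neurons with the block (-0.0094), for Drd5 between neurons and microglia in vehicle libraries alone (0.26) and for Drd1 between astrocytes and microglia with the block (0.060). None of these was called, and the cause was not tested.

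Leaving out 1 library also reversed uncalled values. For Drd1 the ranges were -1.39 to 0.42 (clozapine against risperidone, microglia), -0.16 to 0.076 (risperidone against vehicle, astrocytes), -1.18 to 0.47 (risperidone against vehicle, neurons), -1.27 to 0.22 (clozapine against risperidone, neurons) and -0.32 to 0.28 (astrocytes against microglia). For Drd2 they were -1.05 to 0.65, -0.39 to 0.74 and -1.11 to 0.48 in microglia (clozapine against vehicle, risperidone against vehicle, clozapine against risperidone), -0.33 to 0.40 in astrocytes (clozapine against vehicle), and -1.05 to 0.69 and -1.33 to 0.41 in neurons (risperidone against vehicle, clozapine against risperidone). Drd3 between astrocytes and microglia ran from -0.74 to 0.047. The Drd1 interactions ran from -0.40 to 1.69 (clozapine, neurons minus microglia), -0.11 to 1.79 (risperidone, neurons minus microglia) and -1.31 to 0.60 (risperidone, neurons minus astrocytes). With n = 2 pools a group and at most 334 counts of a receptor per library, depth and replicates limit every drug comparison.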
